A study of Mus musculus with 16 samples.

Results

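The BCL2 family of apoptosis regulators was followed through 10 genes, Bcl2, Bcl2l1, Mcl1, Bcl2a1a, Bcl2a1b, Bcl2a1d, Bcl2l11, Bax, Bak1 and Bid, out of 27179 genes in the count table. The genes were chosen by name as family members, with earlier results of these data known. Each was found by its Entrez identifier and mouse symbol. RNA was sequenced from iBMDM MyD88-AGF cells, an immortalised mouse macrophage line from bone marrow with the genotype label MyD88-AGF WT, which all 4 groups share. The series title concerns mediators of myddosome assembly, the MyD88 signalling complex that forms below Toll-like receptors. Responders received lipopolysaccharide (LPS, a bacterial cell-wall glycolipid) at 10 ng/mL for 6 h and were sorted for high side scatter, the light deflected by structures inside a cell. Bystanders came from the same LPS treatment and were sorted for low side scatter. The LPS pool had the same dose and time and passed the sorter with no gate, and untreated cells passed it with no gate and no LPS. Each group had 4 libraries. The ungated samples were collected after the gated ones, so collection order cannot be told apart from gating in comparisons between them. All libraries came from 1 immortalised line, and the labels do not say whether replicates were separate cultures. The p-values therefore rest on the spread between libraries alone, and that spread may be technical.

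Proteins of this family meet at the outer mitochondrial membrane and set whether it is opened. Pro-survival members (BCL2, BCL-XL from Bcl2l1, MCL1 and A1 from the Bcl2a1 genes) hold the pore formers BAX and BAK in check, and BH3-only members such as BIM (Bcl2l11) and BID displace them or activate the pore formers directly. An open pore lets cytochrome c out, which starts the caspases. In macrophages MCL1 and A1 are known for supporting survival, and the Bcl2a1 genes are known targets of NF-kappaB.

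Total counts ran from 15287344 to 25193162 per library. Of 8 macrophage markers, 7 stood at 1 CPM or more in every library (CPM, the read count as a rate of the scaled library total), and their summed level was 4529 to 4581 CPM in responders, 3759 to 3785 CPM in bystanders, 4298 to 4356 CPM in the LPS pool and 3278 to 3309 CPM in untreated cells. Mertk was the exception, at 0.618 to 2.73 CPM. Of 7 lymphocyte markers, 5 were at 0 in every library, and the neutrophil markers summed to at most 2.1 CPM. A set of 6 libraries (responder 1, bystanders 3 and 4, LPS pool 3 and 4, untreated 1) held transcripts of 12 neural markers at 2 CPM or more, and the summed fibroblast markers reached 105.5 CPM in 1 library. The 5 dendritic cell markers summed to 4.28 to 5.38 CPM in responders and 7.14 to 8.49 CPM in bystanders. They summed to 3.37 to 5.28 CPM in the LPS pool and 0.498 to 0.926 CPM in untreated cells. Of these markers, Xcr1 ran from 0.360 to 8.16 CPM over the libraries. Zbtb46 reached at most 0.606 CPM, Clec9a 0.364 CPM and Flt3 0.141 CPM, with Siglech at 0 throughout. Mitochondrial reads made up 1.41% to 1.47% of counts in responders, 1.84% to 1.91% in bystanders, 1.44% to 1.47% in the LPS pool and 1.96% to 1.98% in untreated cells. The part of these markers in the member results was not tested. Bystander libraries 3 and 4 also held Il1b at 64.1 and 65.1 CPM, against 7.79 and 9.03 CPM in bystanders 1 and 2. Member results that changed without these libraries are given beside each gene.

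All 10 members passed the low-count filter that left 12589 genes. Bcl2a1a passed it only through the responder and LPS pool libraries, so that it was bound to differ, and counts without it are also given. A gene was called where edgeR's quasi-likelihood test gave an adjusted p under 0.05 over all genes tested. Between responders and bystanders, 8 members were higher in responders and 2, Bid and Bcl2, were lower (7 and 2 without Bcl2a1a), where 70% of all genes were called, 34.7% higher and 35.3% lower. In the LPS pool against untreated cells, 8 members were higher, 1 was lower and 1 was not called (7 higher without Bcl2a1a), where 71.9% of all genes were called, 34.1% higher and 37.8% lower. Responders against untreated cells also gave 8 higher and 1 lower (7 and 1 without Bcl2a1a), beside 75% of all genes called, 36.5% higher and 38.5% lower. Bystanders against untreated cells gave 7 higher and 1 lower, none of them Bcl2a1a, beside 67.1% of all genes called, 34.1% higher and 32.9% lower. With so many genes called, a call alone sets no member apart. Calls of at least 2-fold higher covered the 3 Bcl2a1 genes between gates (5.82% of all genes), 4 members in the LPS pool (9.72%), 5 in responders (10.8%) and 1 in bystanders (7.51%), the last 3 against untreated cells. Without Bcl2a1a these counts were 2, 3, 4 and 1. The libraries did not overlap for 10 members between responders and bystanders (63.9% of all genes), 9 between the LPS pool and untreated cells (64.9%), 10 between responders and untreated cells (69.2%) and 8 between bystanders and untreated cells (60.7%). Without Bcl2a1a they were 9, 8, 9 and 8 of 9 members. The median log2 fold change of the members was 0.39 for responders against bystanders, 0.83 for the LPS pool against untreated, 1.03 for responders against untreated and 0.57 for bystanders against untreated, and without Bcl2a1a 0.35, 0.74, 0.92 and 0.65. The medians of all genes tested were -0.01, -0.03, -0.02 and 0.01 in the same comparisons. In bulk RNA, fewer cells holding a transcript and less of it per cell cannot be told apart.

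**Figure D1:**
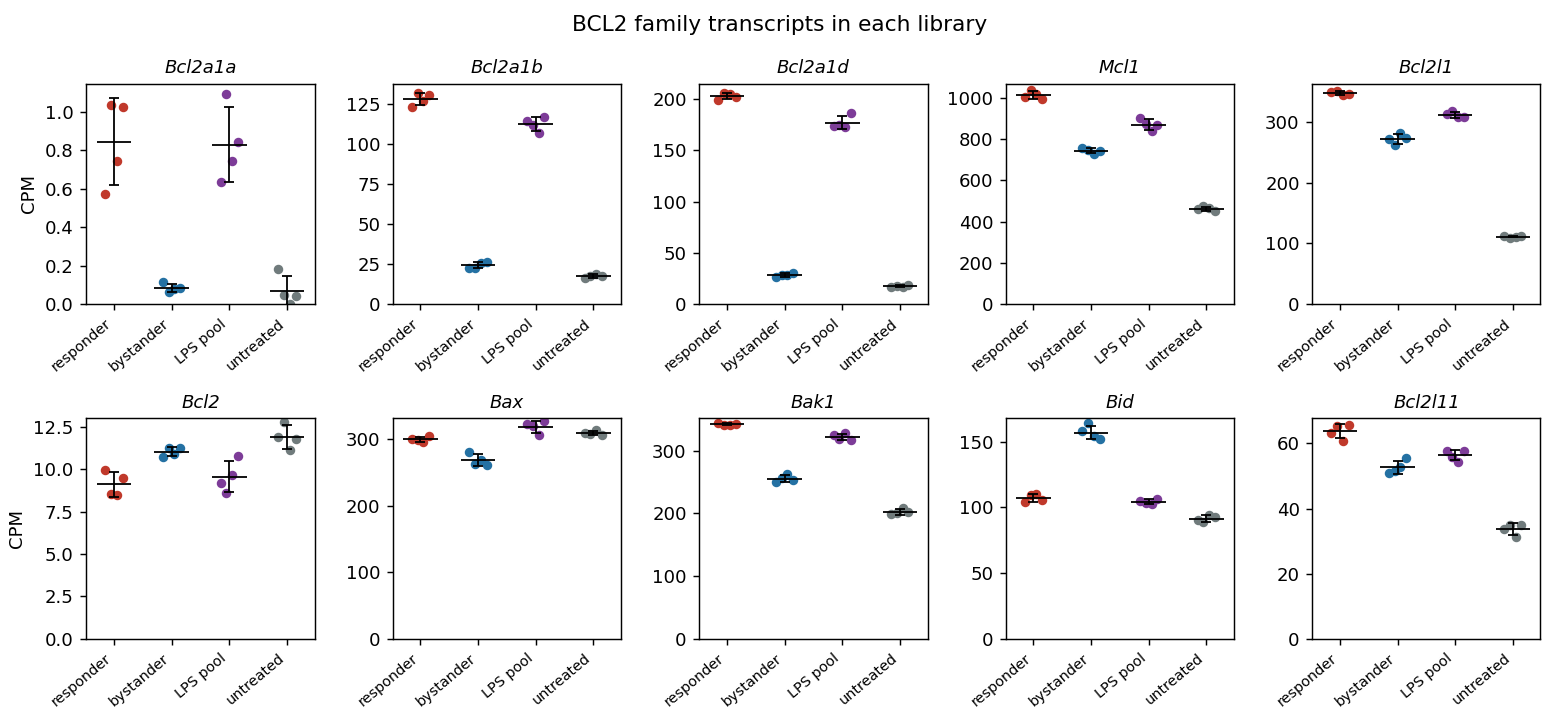
Level of each member in CPM (reads as a rate of the scaled library total), with 1 point per library, the group mean as a line and the SD as a bar (n = 4 libraries per group). Bcl2a1b and Bcl2a1d were 7.37- and 11.7-fold above untreated in responders and 1.40- and 1.64-fold in bystanders, Bid was highest in bystanders, and the Bax points of the LPS pool and untreated cells overlap.

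The Bcl2a1 genes encode A1, a pro-survival protein with several near-identical copies in the mouse. Bcl2a1d (chromosome 9, 88723288 to 88731850, minus strand), Bcl2a1a (88956920 to 88962416, plus strand) and Bcl2a1b (89199273 to 89207838, plus strand) lie on the same chromosome in GRCm38. Their coding sequences are 516 bases long and differ at 12 positions in all. Bcl2a1a and Bcl2a1b differ at 11 bases (97.9% identical), Bcl2a1a and Bcl2a1d at 7 (98.6%), and Bcl2a1b and Bcl2a1d at 6 (98.8%). The first 60 coding bases hold 6 of the 12 positions and are shown because reads of different copies can be told apart at such bases. Capitals mark positions at which the 3 copies differ, and the sequences were read from GRCm38 at chr9:88957051-88957110 on the plus strand, chr9:89199360-89199419 on the plus strand and chr9:88731660-88731719 on the minus strand.
Bcl2a1a: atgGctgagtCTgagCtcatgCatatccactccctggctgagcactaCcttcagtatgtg
Bcl2a1b: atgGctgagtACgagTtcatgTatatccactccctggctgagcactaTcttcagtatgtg
Bcl2a1d: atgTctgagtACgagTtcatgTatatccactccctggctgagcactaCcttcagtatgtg
Of all 100-base windows of the transcript, 43.5% in Bcl2a1a, 31.1% in Bcl2a1b and 54.7% in Bcl2a1d occurred without a mismatch in another copy. How the authors counted reads that map to several places is not given in the sources used here. The split of reads among the copies is therefore uncertain, and their sum is given beside each copy. In the annotation, 49.1% of the Bcl2a1b exon bases also belong to another gene model on the same strand, Gm29094.

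The stretch just upstream of the copies was also nearly the same, and is shown for its shared ETS-type core, GAGGAAGT, the kind of site bound by PU.1 (Spi1), in capitals. The stretches are credited to RefSeq (GRCm38.p6) and lie at chr9:89199095-89199196 on the plus strand for Bcl2a1b (bases -178 to -77 from its gene start) and at chr9:88731883-88731978 on the minus strand for Bcl2a1d (bases -128 to -33). The 102 bases of Bcl2a1a at chr9:88956786-88956887 on the plus strand (bases -134 to -33) are identical to those of Bcl2a1b.
Bcl2a1b: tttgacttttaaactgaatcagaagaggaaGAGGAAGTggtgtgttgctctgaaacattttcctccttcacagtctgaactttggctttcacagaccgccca
Bcl2a1d: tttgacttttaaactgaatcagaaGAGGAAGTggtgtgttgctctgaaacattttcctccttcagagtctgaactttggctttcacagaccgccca
The core was picked after these windows were read. Searched on both strands of 300-base windows around gene starts, it occurred in the window of each Bcl2a1 copy and of Bak1, which makes 4 of the members' 13 windows, and in 3.20% of all 32851 windows. The NF-kappaB consensus site occurred in 1 of the 3 Bcl2l1 windows and in no Bcl2a1 window, beside 8.46% of all windows. A match describes these letters in this window and is not a measured binding site.

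The Bcl2a1 copies had the widest range of the family. They were high in the LPS pool and in responders and low in bystanders that had received the same LPS. Bcl2a1d stood at 199, 205, 204 and 202 CPM in the responder libraries and at 26.1, 28.5, 28.0 and 30.6 CPM in the bystander libraries. It stood at 174, 174, 173 and 186 CPM in the LPS pool, against 16.7, 17.9, 16.5 and 18.2 CPM in untreated cells. All 4 groups were apart from each other, in the order responders, LPS pool, bystanders and untreated. Bcl2a1d was 7.14-fold higher in responders than in bystanders (log2 fold change 2.84 ± 0.04, SE, adjusted p = 9.98e-59, edgeR). It was 10.2-fold higher in the LPS pool than in untreated cells (3.35 ± 0.04, adjusted p = 5.43e-61, edgeR).

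Bcl2a1b stood at 123, 131, 126 and 130.5 CPM in responders and at 22.2, 22.8, 25.3 and 26.1 CPM in bystanders. It stood at 114, 112, 107 and 116.97 CPM in the LPS pool, against 16.04, 17.5, 18.6 and 17.4 CPM in untreated cells. The order of the groups was that of Bcl2a1d, again with no overlap. Bcl2a1b was 5.25-fold higher in responders than in bystanders (log2 2.39 ± 0.04, adjusted p = 2.59e-51, edgeR) and 6.47-fold higher in the LPS pool than in untreated cells (log2 2.69 ± 0.04, adjusted p = 1.06e-52). Bystanders exceeded untreated cells by 0.49 ± 0.06 (log2) for Bcl2a1b and 0.71 ± 0.05 for Bcl2a1d, at adjusted p = 1.23e-11 and 2.22e-19 (edgeR). Without bystander libraries 3 and 4 these differences were 0.37 for Bcl2a1b and 0.65 for Bcl2a1d, and both were still called.

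Bcl2a1a was barely read. It had 12, 21, 15 and 22 reads in responders, 2, 1, 2 and 2 in bystanders, 11, 23, 12 and 12 in the LPS pool and 4, 1, 0 and 1 in untreated cells. The responder and LPS pool libraries overlapped each other, and so did the bystander and untreated libraries. Relative to the scaled library totals, responders held 10.2 times as many reads as bystanders (70 against 7 reads, exact 95% interval 4.68 to 26.2). The LPS pool held 12.3 times as many as untreated cells (58 against 6 reads, 5.34 to 35.0). These intervals cover counting error only, since reads are not independent molecules. Of the 6 untreated reads, 4 came from replicate 1, and the fitted Bcl2a1a log2 fold change for the LPS pool against untreated cells was 3.50 with all libraries and 4.53 without untreated replicate 1. Since the filter bound Bcl2a1a to differ, its intervals, and its calls here and below, are not read as tests of a difference.

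Summed over all 4 copies, with the pseudogene Bcl2a1c included at 0 to 9 reads per group, the Bcl2a1 genes reached 332 ± 6.28 CPM in responder libraries, against 52.5 ± 3.52 CPM in bystander libraries (SD over 4 libraries). The LPS pool reached 290.1 ± 10.0 CPM, against 34.8 ± 1.24 CPM in untreated cells. The sum was 6.28-fold higher in responders than in bystanders and 8.34-fold higher in the LPS pool than in untreated cells (adjusted p = 6.58e-56 and 6.54e-58, edgeR). Bystanders were 1.52-fold above untreated cells (adjusted p = 1.10e-19). Bcl2a1d took 61.2% of the reads of the copies in responders, 53.7% in bystanders, 60.9% in the LPS pool, against 49.9% in untreated cells. Bcl2a1b took 38.6%, 46.1%, 38.8% and 49.9% in the same groups.

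Mcl1 (chromosome 3, 95656944 to 95663179), whose product is a short-lived guard against BAK and BAX, was the most highly read member. It stood at 1004, 1039.6, 1019.5 and 996 CPM in responders and at 758, 749, 729.6 and 742 CPM in bystanders. It stood at 901, 871, 838 and 871 CPM in the LPS pool, against 459, 474, 466 and 449.6 CPM in untreated cells. No library of one group overlapped another group, in the order responders, LPS pool, bystanders and untreated. Mcl1 was 1.36-fold higher in responders than in bystanders (log2 0.45 ± 0.02, adjusted p = 9.33e-29, edgeR) and 1.88-fold higher in the LPS pool than in untreated cells (log2 0.91 ± 0.02, adjusted p = 7.75e-45).

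Bcl2l1 (chromosome 2, 152758732 to 152833803), which encodes BCL-XL, showed a large LPS difference and a small one between gates. It stood at 349, 351, 345 and 345 CPM in responders and at 272, 262, 282 and 273 CPM in bystanders. It stood at 313, 318, 308 and 309 CPM in the LPS pool, against 112, 109.6, 110.4 and 112 CPM in untreated cells. The groups followed the order seen for Mcl1, with no overlap. Responders were 1.28-fold above bystanders (log2 0.35 ± 0.02, adjusted p = 1.48e-22, edgeR), and the LPS pool was 2.81-fold above untreated cells (log2 1.49 ± 0.02, adjusted p = 1.41e-53). Bystanders were 2.46-fold above untreated cells (log2 1.30 ± 0.02, adjusted p = 3.53e-50), against 3.13-fold for responders.

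Bcl2 (chromosome 1, 106538176 to 106714290), the founding pro-survival gene of the family, was low in every group. It stood at 9.94, 8.54, 8.46 and 9.47 CPM in responders and at 10.7, 11.3, 10.9 and 11.2 CPM in bystanders. It stood at 9.18, 8.59, 9.68 and 10.8 CPM in the LPS pool, against 11.9, 12.8, 11.1 and 11.8 CPM in untreated cells. Responders lay below bystanders and the LPS pool below untreated cells, while bystanders and untreated cells overlapped. Bcl2 fell 1.21-fold in responders against bystanders (log2 -0.28 ± 0.08, adjusted p = 2.93e-03, edgeR) and 1.26-fold in the LPS pool against untreated cells (log2 -0.33 ± 0.08, adjusted p = 4.72e-04). In the 10 libraries without neural transcripts these Bcl2 values were -0.31 and -0.42 and still called. In the 6 libraries with them the values were -0.15 and -0.22. That set held 1 responder and 1 untreated library, so no call is read from it. Of the Bcl2 exon bases, 6.09% overlap a gene model on the other strand.

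**Figure D2:**
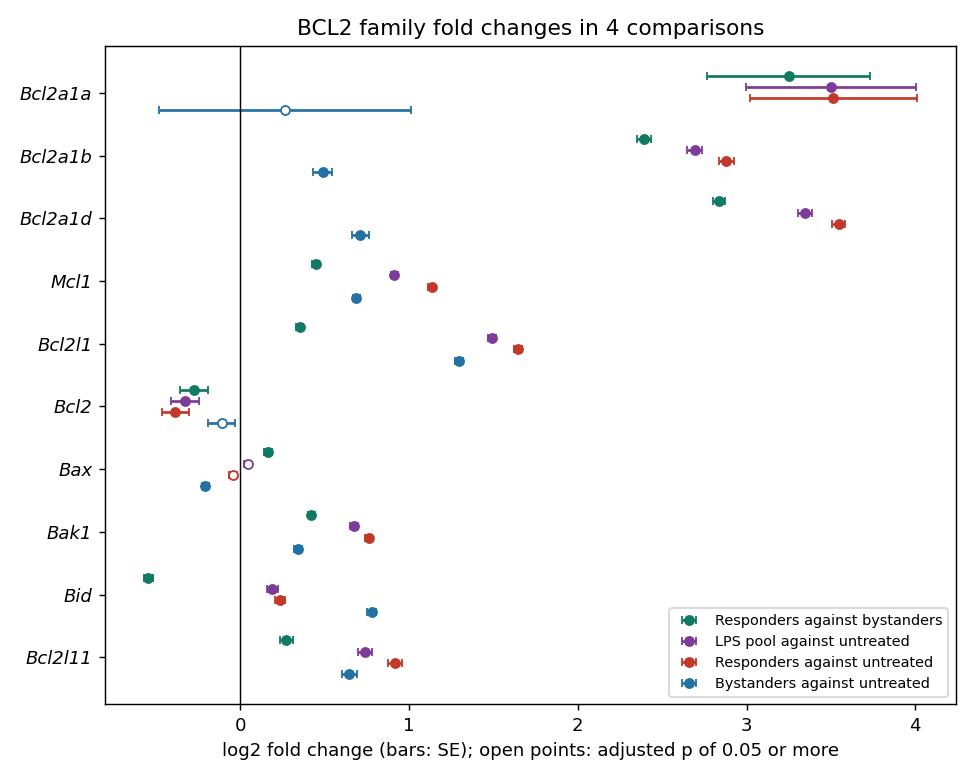
Log2 fold change of each member (x axis, bars give the SE) in 4 comparisons, with filled points at an adjusted p under 0.05 in edgeR's test. The filled points of Bcl2a1a are not read as tests, because the filter bound it to differ. For Bcl2a1b and Bcl2a1d bystanders against untreated (blue) lie at 0.49 and 0.71 while the other comparisons exceed 2, for Bcl2l1 bystanders against untreated reach 1.30, and Bid is negative for responders against bystanders and positive in the other comparisons (with library totals alone, Bax in responders against bystanders and Bid in the LPS pool and in responders against untreated turn negative).

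The pore formers behaved unlike each other. Bak1 (chromosome 17, 27019812 to 27028627), which encodes BAK, stood at 344, 341, 341 and 342 CPM in responders and at 251, 256, 263 and 253 CPM in bystanders. It stood at 325, 319.6, 328 and 317 CPM in the LPS pool, against 199, 200.2, 209 and 202 CPM in untreated cells. No groups overlapped. Bak1 was 1.34-fold higher in responders than in bystanders (log2 0.42 ± 0.02, adjusted p = 1.72e-26, edgeR) and 1.59-fold higher in the LPS pool than in untreated cells (log2 0.67 ± 0.02, adjusted p = 1.69e-36). The strand setting of the counts is not given in the sources used here, and Ggnbp1 on the other strand overlaps 18.2% of the Bak1 exon bases.

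Bax (chromosome 7, 45461695 to 45466903) varied least of all members over the 4 groups, by 0.25 on the log2 scale. It stood at 301, 298, 296 and 304 CPM in responders and at 280.5, 263, 269 and 261 CPM in bystanders. It stood at 323, 320.1, 306 and 327 CPM in the LPS pool, against 309.9, 308, 314 and 307 CPM in untreated cells. Bystanders were lowest without overlap, and the LPS pool overlapped untreated cells. Bax was 1.12-fold higher in responders than in bystanders (log2 0.16 ± 0.02, adjusted p = 3.56e-09, edgeR), a sign that turned to -0.03 (adjusted p = 0.249) when libraries were scaled by their totals alone. Bax fell 1.15-fold in bystanders against untreated cells (log2 -0.21 ± 0.02, adjusted p = 1.69e-12). The Bax difference between the LPS pool and untreated cells was 0.04 ± 0.02 (adjusted p = 0.084, edgeR), 0.07 with DESeq2 (adjusted p = 4.68e-03) and -0.29 with library totals alone (adjusted p = 3.92e-18), so its direction depended on the scaling. It was 0.06 for Bax in the 10 libraries without neural transcripts (adjusted p = 0.0362), and it was also called without LPS pool replicate 3 or untreated replicate 3 (adjusted p = 9.09e-03 and 0.0462). Responders against untreated cells gave -0.05 ± 0.02 for Bax (adjusted p = 0.058, edgeR) and -0.43 with library totals alone (adjusted p = 2.04e-26). Of the Bax exon bases, 12.2% also belong to another gene model on the same strand, Gm45808.

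Bid (chromosome 6, 120893119 to 120917062) encodes a BH3-only protein that caspase-8 can cut into its active form, and was the member that stood highest in bystanders. It stood at 104, 109.5, 110.5 and 106 CPM in responders and at 158, 164, 154 and 152 CPM in bystanders. It stood at 105, 103, 103 and 106 CPM in the LPS pool, against 90.5, 88.7, 94.0 and 92.9 CPM in untreated cells. Bystanders were far above the other groups, responders and the LPS pool overlapped, and untreated cells were lowest. Bid fell 1.46-fold in responders against bystanders (log2 -0.55 ± 0.03, adjusted p = 4.97e-26, edgeR) and was 1.71-fold higher in bystanders than in untreated cells (log2 0.78 ± 0.03, adjusted p = 1.33e-33). Its differences of 0.19 ± 0.03 between the LPS pool and untreated cells and of 0.23 ± 0.03 between responders and untreated cells (adjusted p = 1.47e-07 and 3.10e-10) turned to -0.14 and -0.15 for Bid with library totals alone. Bid shares 17.7% of its exon bases with Bcl2l13 on the other strand.

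Bcl2l11 (chromosome 2, 128126038 to 128162547), which encodes the BH3-only protein BIM, stood at 63.3, 65.4, 60.9 and 65.5 CPM in responders and at 51.0, 51.5, 52.9 and 55.5 CPM in bystanders. It stood at 57.6, 55.9, 54.3 and 57.8 CPM in the LPS pool, against 33.6, 34.8, 31.3 and 35.1 CPM in untreated cells. Responders were highest and untreated cells lowest, and the bystander and LPS pool ranges overlapped. Bcl2l11 was 1.67-fold higher in the LPS pool than in untreated cells (log2 0.74 ± 0.04, adjusted p = 1.29e-23, edgeR) and 1.21-fold higher in responders than in bystanders (log2 0.27 ± 0.04, adjusted p = 9.32e-09). The difference between gates for Bcl2l11 was 0.08 and not called with library totals alone (adjusted p = 0.0571). That scaling moved the median of all genes by about the same amount as these small differences: it was -0.20 for responders against bystanders, -0.36 for the LPS pool against untreated, -0.41 for responders against untreated and -0.18 for bystanders against untreated.

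The part of the responders' rise over untreated cells that was also present in bystanders differed among the members called higher in both groups. Taken on mean CPM, it was 68.2% for Bcl2l1, 63.2% for Bcl2l11, 51.1% for Mcl1 and 38.2% for Bak1, and it was 6.09% for Bcl2a1b and 5.91% for Bcl2a1d. Bid exceeded 100%, with a bystander rise of 411% of the responders' rise. With library totals alone Bid in responders against untreated cells turned to -0.15 (log2), so the 411% rests on the main scaling. Both groups were set against the same untreated libraries.

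Responders and bystanders share no library with the LPS pool and untreated cells, so their values can be read side by side. These comparisons are not independent, since all libraries were scaled and fitted together and some same-numbered libraries of these groups were correlated. Bid had opposite signs in responders against bystanders (-0.55) and in the LPS pool against untreated cells (0.19, and -0.14 with library totals alone). The other 9 members had 1 sign in both. They include Bcl2a1a, whose sign was fixed by the filter, and Bax, not called in the LPS pool against untreated cells (adjusted p = 0.084, edgeR). For Bax the sign was positive, and negative with library totals alone (-0.03 and -0.29). The share of all genes with 1 sign in both was not counted, so this count sets no member apart.

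**Figure D3:**
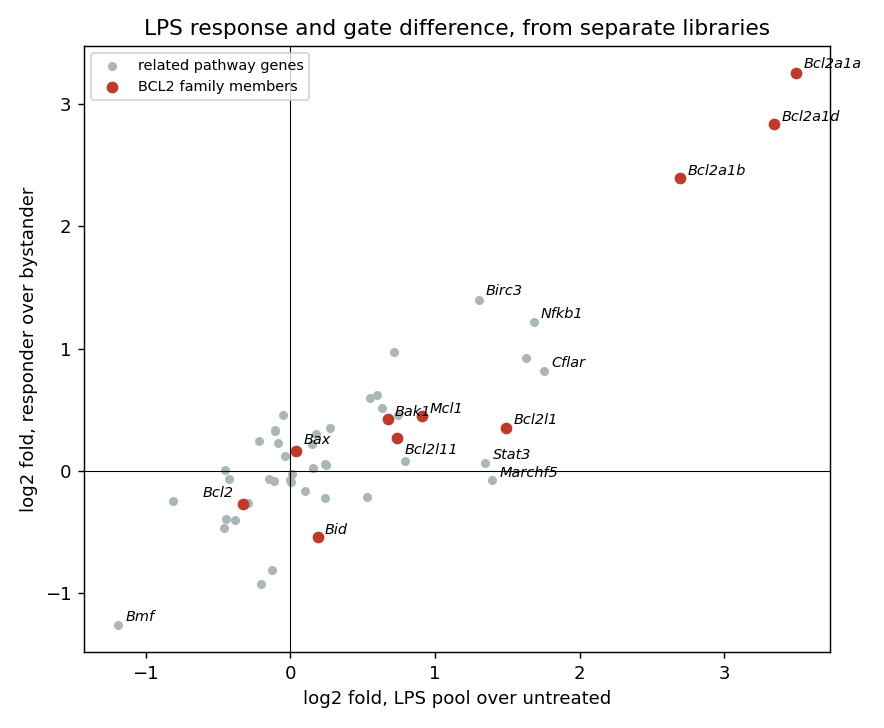
Log2 fold change of responders over bystanders (y axis) against that of the LPS pool over untreated cells (x axis), with 1 point per gene for the members (red) and related apoptosis genes (grey). The Bcl2a1 genes lie at the upper right, Bcl2l1 and Stat3 lie far right with little height, and Bid lies below the zero line, where its x value of 0.19 turns to -0.14 with library totals alone.

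Levels of different genes were compared per kilobase of exon (CPM per kb). In responders the order was Mcl1 at 297, Bcl2a1d at 235, Bax at 190.4, Bcl2a1b at 157, Bak1 at 142, Bcl2l1 at 75.8, Bid at 30.3, Bcl2l11 at 7.94, Bcl2a1a at 1.03 and Bcl2 at 0.994 CPM per kb. In bystanders it was Mcl1 at 218, Bax at 170.2, Bak1 at 106, Bcl2l1 at 59.4, Bid at 44.3, Bcl2a1d at 32.8, Bcl2a1b at 29.5, Bcl2l11 at 6.57, Bcl2 at 1.20 and Bcl2a1a at 0.102 CPM per kb. Of neighbours in these orders, Bcl2a1a and Bcl2 in responders, and Bcl2a1d and Bcl2a1b in bystanders, had overlapping libraries. In untreated cells Bax led at 196 CPM per kb, ahead of Mcl1 at 135 and Bak1 at 84.0 CPM per kb, while Mcl1 led the LPS pool at 255 CPM per kb.

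**Figure D4:**
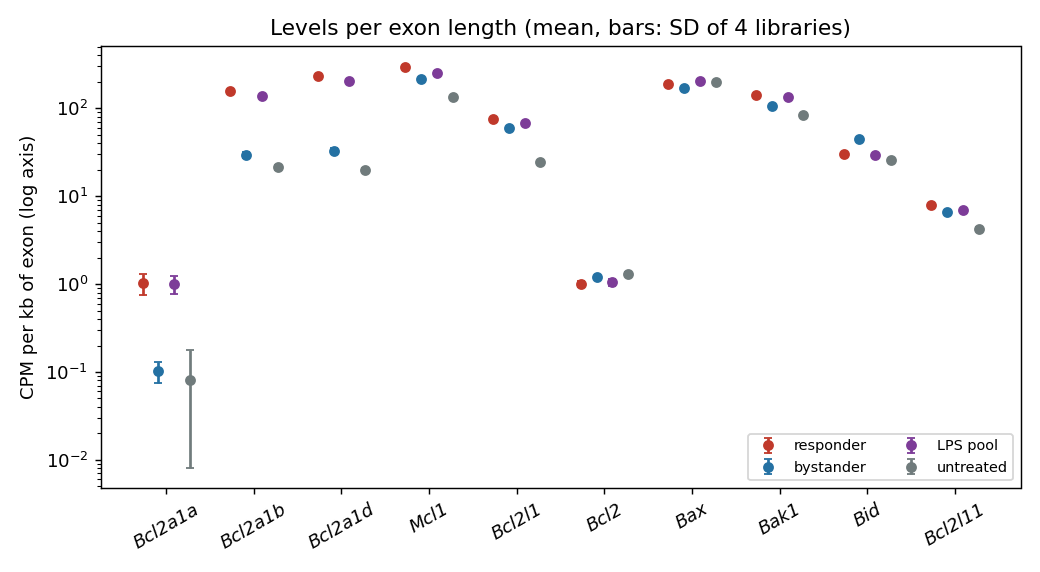
Level per exon length (CPM per kb, log axis) of each member, as the mean and SD of 4 libraries in each group. Mcl1 was above Bax in every LPS-treated group and below it in untreated cells, and the lower bar of Bcl2a1a in untreated cells is shortened because its SD exceeded its mean.

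As a share of the summed level per kb of the 10 members, the 6 pro-survival members made up 67.4% ± 0.405 in responders and 51.0% ± 0.599 in bystanders (SD, n = 4 each). Other family genes were outside this sum, such as Bbc3 at 14.3 and Bcl2l2 at 10.2 CPM per kb in responders. The pro-survival members made up 64.2% ± 0.282 in the LPS pool, against 39.4% ± 0.453 in untreated cells. No group overlapped another. The summed level was 1137 CPM per kb in responders, 668 in bystanders, 1039.9 in the LPS pool, against 513 in untreated cells. Between responders and bystanders, Bcl2a1d stood at 20.7% against 4.91% of the sum and Bcl2a1b at 13.8% against 4.42%, while Mcl1 stood at 26.1% against 32.6% and Bax at 16.7% against 25.5%. A share can change because another member changes, so these values describe the make-up and not each gene.

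**Figure D5:**
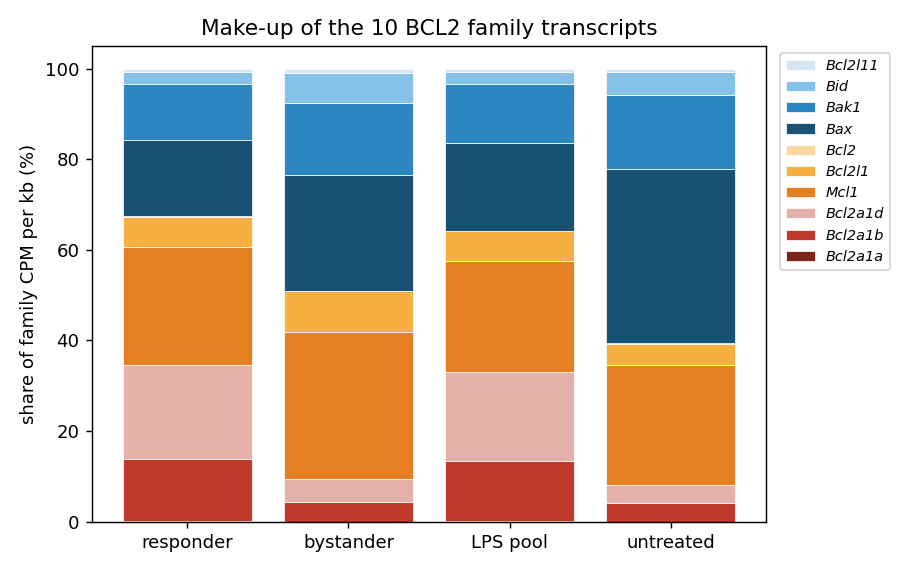
Share of each member in the summed level of the 10 members (percent of CPM per kb, mean of 4 libraries), with pro-survival genes in red and orange and pore formers and BH3-only genes in blue. The Bcl2a1 segments are widest in responders and the LPS pool, and Bax takes 38.3% of the sum in untreated cells.

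The ungated LPS pool was also set against the gated groups. The mean of the responders' and bystanders' fitted log2 levels was higher than the pool for 1 member and lower for 5 (4 without Bcl2a1a), with 4 not called, beside 49.3% of all genes called, 24.4% higher and 24.8% lower. Bid was higher by 0.31 ± 0.03 (log2, adjusted p = 3.19e-16, edgeR), and Bcl2a1d and Bcl2a1b were lower, at log2 -1.22 ± 0.03 and -1.01 ± 0.03 (adjusted p = 7.84e-44 and 9.13e-36). A mean of log2 levels lies below the log2 of the mean where groups are far apart: on mean CPM the gated groups averaged 115.6 against 176.9 CPM in the pool for Bcl2a1d, and 76.0 against 112 CPM for Bcl2a1b. Bcl2a1a (-1.61), Bax (-0.17) and Bak1 (-0.12) were also lower. On mean CPM, the pool lay 85.1% of the way from bystanders to responders for both Bcl2a1b and Bcl2a1d, 77% for Bak1, 52.6% for Bcl2l1, 46.5% for Mcl1 and 33.3% for Bcl2l11. The LPS pool mean of Bax, 319 CPM, was above both responders (299.995 CPM) and bystanders (268 CPM), and that of Bid, 104 CPM, was below both responders (107 CPM) and bystanders (157 CPM).

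Related genes of the pathway were summarised in 5 lists with 50 genes in all. Over all genes tested, 34.7% were called higher and 35.3% lower in responders against bystanders. In the LPS pool against untreated cells 34.1% were called higher and 37.8% lower. List counts near these shares set no list apart. Of 14 other BCL2 family genes, 8 were tested, of which 3 were higher and 1 lower in responders against bystanders (2 lower without bystander replicate 1 or 4), and 3 were higher and 3 lower in the LPS pool against untreated cells. With library totals alone 5 were lower in both comparisons. Bmf, a BH3-only gene, averaged 1.29 CPM in responders and 3.13 CPM in bystanders (log2 -1.26 ± 0.17, adjusted p = 3.28e-09, edgeR). It averaged 2.31 CPM in the LPS pool, against 5.30 CPM in untreated cells (log2 -1.19 ± 0.15, adjusted p = 3.06e-10). The median log2 fold change of the list was 0.03 between gates and -0.05 for the pool against untreated.

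Among 15 genes of mitochondrial release and the apoptosome, 9 were higher and 5 lower in responders against bystanders (median log2 0.215). In the LPS pool against untreated cells 6 were higher and 6 lower (median -0.05), and 11 were lower with library totals alone.

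Of 6 caspase inhibitor genes, 2 were higher and 4 lower in responders against bystanders, and 3 were higher and 1 lower in the LPS pool against untreated cells (2 lower without LPS pool replicate 2, and 4 with library totals alone). Cflar, which encodes cFLIP, the brake on caspase-8, averaged 312 CPM in responders and 177 CPM in bystanders (log2 0.82 ± 0.02, adjusted p = 1.36e-39, edgeR). Cflar averaged 260.5 CPM in the LPS pool, against 77.2 CPM in untreated cells (log2 1.75 ± 0.03, adjusted p = 2.79e-55). Birc3, which encodes cIAP2, averaged 82.7 CPM in responders, 31.4 CPM in bystanders, 71.3 CPM in the LPS pool and 28.9 CPM in untreated cells. Birc3 was 2.63-fold higher in responders than in bystanders (adjusted p = 7.84e-39), and its difference of 0.12 between bystanders and untreated cells (adjusted p = 0.0212) was lost without bystander replicate 4 (0.1) or untreated replicate 3 (0.0968) and was -0.07 for Birc3 with library totals alone.

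Of 6 tested genes that tag, untag or bind MCL1 protein, 1 was higher and 4 lower in responders against bystanders, and 4 were higher and 1 lower in the LPS pool against untreated cells (2 and 4 with library totals alone). Marchf5, a ubiquitin ligase of the mitochondrial membrane, averaged 247 CPM in responders, 261 CPM in bystanders, 232 CPM in the LPS pool and 88.0 CPM in untreated cells. Marchf5 was 2.63-fold higher in the LPS pool than in untreated cells (adjusted p = 3.53e-31, edgeR). Its difference between gates, -0.08 (adjusted p = 0.0139), was lost without responder replicate 1 or 4 or bystander replicate 1 or 2, at adjusted p = 0.0529 to 0.116.

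Of 8 transcription factor genes linked to the family, 6 were higher and 0 lower in responders against bystanders (3 higher and 2 lower with library totals alone), and 6 were higher and 1 lower in the LPS pool against untreated cells (3 lower with library totals alone). Nfkb1, an NF-kappaB subunit gene, averaged 323 CPM in responders and 139 CPM in bystanders (log2 1.22 ± 0.02, adjusted p = 6.76e-49, edgeR), and 269 CPM in the LPS pool, against 83.8 CPM in untreated cells. Stat3 averaged 297 CPM in responders, 284 CPM in bystanders, 257 CPM in the LPS pool and 101 CPM in untreated cells. Its difference between gates was 0.06 (adjusted p = 0.0106), and -0.13 for Stat3 with library totals alone.

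For each member whose group means spanned at least 1 on the log2 scale, the 3 genes outside the family with the smallest root mean square difference of centred log2 CPM over the 16 libraries were found. Bcl2a1d was followed most closely by Nfkbia (0.0831), the NF-kappaB inhibitor gene, then by the chemokine gene Ccl6 (0.107) and Nupr1 (0.175). Bcl2a1b was followed by the chemokine gene Ccl9 (0.0777), the receptor gene Clec4e (0.114) and Procr (0.141). For Bcl2a1a, with few reads, the nearest were Arl5c (0.334), Csta2 (0.352) and Dcbld2 (0.353). Nfkbia averaged 556 CPM in responders, 83.3 CPM in bystanders, 510.4 CPM in the LPS pool and 51.9 CPM in untreated cells. Mcl1 was followed by Map2k1 (0.0396), the MEK1 gene, Eloa (0.0491) and Ilrun (0.054). Bcl2l1 was followed by Gtpbp2 (0.0434), Azi2 (0.0484) and Stard3 (0.0508). Likeness here is a description over libraries that share 4 groups. The other 5 members spanned less than 1 and were not matched.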

How the data were processed

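The authors deposited raw counts per gene for 16 libraries, built on GRCm38 (mm10) with featureCounts 2.1.1, HISAT2 2.2.2, cutadapt 3.7 and fastp 1.1.0 per the submitters' processing notes. Not given in the sources used here: annotation, strandedness, handling of multi-mapping reads. Of 27179 identifiers, 25275 matched a RefSeq symbol; 1904 did not and held 0.399% of counts. The table had 3 empty columns.

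Counts were fitted with edgeR 4.0.16 (R 4.3.3): filterByExpr, TMM scaling, a robust quasi-likelihood fit to all libraries with 1 mean per group, two-sided F tests and Benjamini-Hochberg adjustment over 12589 genes. CPM are rates of the TMM-scaled totals; exon lengths, coding sequences and overlaps came from GENCODE on the same build. The fit was also run on simulated counts in which few genes changed, as many up as down. That setting is unlike these data, so the run does not test the scaling. Companion genes were named at an adjusted p under 0.05, at least 2-fold and 1 CPM in responders against bystanders or LPS pool against untreated. Of these, 1 gene is not reported here. The members and lists were chosen with earlier results of these data known. Deviations from group means of same-numbered libraries correlated at 0.17 to 0.6 for responders with untreated cells. For bystanders with the LPS pool they correlated at 0.39 to 0.47. The other 4 group pairings ranged from -0.47 to 0.29. The main fit took no libraries as pairs. A replicate block, fitted as an alternative, gave same-numbered libraries of all groups a shared effect, so it did not test single pairings. With the replicate block responders against untreated cells kept 8 members higher and 1 lower. Replicate pairs differed by 1.62 to 3.13 chi-square per degree of freedom. Alternatives were DESeq2 1.42.0, other scalings, filters, fits and libraries left out.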

Additional observations from a re-analysis of the deposited data

Results flagged for a closer look

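Of 68 groups of 4 libraries examined for a library far from the others, 1 was flagged, fewer than the 1 in 20 that chance gives. Bcl2a1d in the LPS pool stood at 186.4 CPM in replicate 4, while the other 3 libraries stood at 173 to 174 CPM, a gap of 0.922 of the group's range, past Dixon's 95% critical value. The library is among the 6 with neural transcripts, and its part in the result was not tested. Bcl2a1d remained far above untreated cells, at 16.5 to 18.2 CPM, in all 4 LPS pool libraries.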

How the results depend on the processing

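Over the 5 comparisons and their alternatives, 277 of 280 member values kept direction and side of the threshold for responders against bystanders, 261 of 270 for the LPS pool against untreated, 266 of 270 for responders against untreated, 265 of 269 for bystanders against untreated and 273 of 280 for the mean of the gated groups against the pool. These values include Bcl2a1a, which the filter bound to differ. Where the copies were summed, the 1 summed value stood for each Bcl2a1 member. Of the 27 or 28 alternatives per comparison, 16 only left out 1 library. Scaling by library totals alone lowered the share of calls that were higher from 49.5% to 27.8% between gates and from 47.4% to 21.6% for the LPS pool against untreated, from 48.7% to 21.7% for responders and from 50.9% to 27.5% for bystanders against untreated, and raised them from 49.6% to 61.5% for the mean of the gated groups against the pool. It gave 3 lower members against untreated for the pool and for responders and 2 for bystanders, and 2 higher for the mean of the gated groups against the pool. It turned Bax to -0.028 and Stat3 to -0.13 between gates, Bax to -0.29 and Bid to -0.14 in the pool, Bid to -0.15 in responders, Birc3 to -0.074 in bystanders, and for the gated mean Bcl2l1 to 0.020 and Mcl1 to 0.038. In the 6 libraries with neural transcripts, a set chosen after seeing the data, 1 member was lower between gates and 0 in the pool and in responders against untreated, 4015 genes were called for the gated mean against the pool (6201 in all libraries), and Bcl2a1a in bystanders was -1.12, and for the gated mean Bcl2l1 was 0.016 and Mcl1 0.012. Without bystanders 3 and 4 together Mcl1 in the gated mean was 0.0017. The cause of these changes was not tested.

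Leaving out 1 library at a time, Bcl2a1a in bystanders against untreated ran from -0.077 (without untreated replicate 3) to 1.29, and Mcl1 in the gated mean from -0.023 (without pool replicate 3) to 0.011 (without pool replicate 1). Counts of members called did not move except 8 to 9 higher in the pool, where Bax passed without pool replicate 3 or untreated replicate 3. The replicate block changed no member's call or direction in the 5 comparisons (8 higher and 2 lower between gates, 8 and 1 in the pool). The planned split at the widest gap of all neural markers placed all untreated libraries on one side, so it gave values for comparisons without them only. Depth limits Bcl2a1a, with 0 to 4 reads in each bystander and untreated library.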
